A study of Mus musculus with 50 samples.

Results

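Gene expression in neocortex was compared between mice labelled S1P2-KO and wild-type mice, across all probe sets of an Affymetrix mouse array. The comparison took 20 of the series' 50 arrays by their titles, 10 of S1P2-KO neocortex and 10 of wild-type neocortex, with 5 males and 5 females in each group. All mice were 8 weeks old. The knockout mice lack S1P2, a receptor for the lipid sphingosine 1-phosphate that the gene S1pr2 encodes, and have sporadic seizures between 4 and 7 weeks of age. A further 5 neocortex arrays of mice deficient in the related receptor S1P3, which do not have such seizures, entered the same model and are used here for single genes. Hippocampus arrays of the same groups are used in the same way. Each array is 1 biological replicate by its title. The allele, strain and seizure history of single animals were not given in the labels. Immediate early genes, glutamate receptors and cholesterol synthesis were left aside, and the description below is of the other genes and pathways.

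Sphingosine 1-phosphate is made inside cells from sphingosine, is exported, and acts on a family of G protein-coupled receptors on the cell surface. S1P2 differs from its relatives in signalling strongly through the G12/13 proteins, which act on the actin cytoskeleton. In brain, receptors of this family are found on neurons, astrocytes and blood vessels, and loss of S1P2 in mice is known for seizures and for deafness.

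Signals are linear MAS5 values of the array scanner software. Differences are S1P2-KO minus wild-type on the log2 scale, given ± SE, from a limma model of log2(signal + 30.7) over 8534 probe sets that read 6350 genes with 1 symbol. All 10 arrays of each group were used. The sex labels fitted Eif2s3y, a Y-linked gene, on every array, with a signal of at least 421.9 on male and at most 124.4 on female arrays. Of the defining markers of neocortex, Tbr1 ran from 5787 to 9264 (median 6437.6) in S1P2-KO and from 6232 to 8405 (median 7677.4) in wild-type. Mef2c had medians of 7224.5 in S1P2-KO and 7677.9 in wild-type. Cux2 was dimmer, with medians of 449 and 398, against a median signal of 364.8 to 412.2 per array. RNA integrity was read from the log2 ratio of 3' over 5' signal averaged over the Gapdh and beta-actin controls. A lower ratio stands for more intact RNA. Its median was 0.256 in S1P2-KO (0.00836 to 0.606), 0.235 in S1P3-KO (0.21 to 0.357) and 0.379 in wild-type (0.297 to 0.482). The ratio was below the lowest wild-type array on 7 of 10 S1P2-KO arrays and on 3 of 5 S1P3-KO arrays, and its part in the results was not tested. Main list counts are therefore also given, below, from a model that held the ratio and without the 2 arrays of lowest ratio, which are S1P2-KO replicates 9 and 10. In whole tissue, fewer cells of a type and less RNA per cell cannot be told apart.

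No probe set passed the threshold, and the differences were small. Limma called 0 of 8534 probe sets at an adjusted p of 0.05 (0.0%), while 746 had an unadjusted p under 0.05 (8.74%), with 383 higher (4.49%) and 363 lower (4.25%) in S1P2-KO. Over the 6350 genes, 288 were higher at that level (4.54%) and 283 were lower (4.46%), and these shares are the background for every gene list below. The background itself was 305 higher and 257 lower with the ratio held, and 225 higher and 215 lower without the 2 arrays of lowest ratio. Of the 117 named genes with an unadjusted p under 0.05, 95 kept it with the ratio held and 95 without the 2 arrays. Among the 16 that kept it in neither were Vip, Psap, Pkm, Col8a1, Folr1, Gabbr1, Elovl1, Sel1l and Mrpl4. The median difference over all genes was -0.01, and 48.3% of the estimates lay above 0. The count of calls depended on single arrays and on their weighting: it became 8 with wild-type replicate 6 left out, 5 with wild-type replicate 7 left out, 2 with S1P2-KO replicate 2 left out, 8 with array weights and 1 when the model held the 3'/5' ratio. Outside the gene groups left aside, these settings called Mest, Lor, Siah2, Usp2, Pdia6, Gpr19 and Nab2, each in at least 1 of them, and Wdr92 only with the ratio held. Gadd45b, one of the immediate early genes left aside, was called in 4 of these settings on 1 of its probe sets (-0.88 to -0.99, against -0.89 ± 0.18 and a limma adjusted p of 0.0764 in the model of all arrays).

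**Figure D1:**
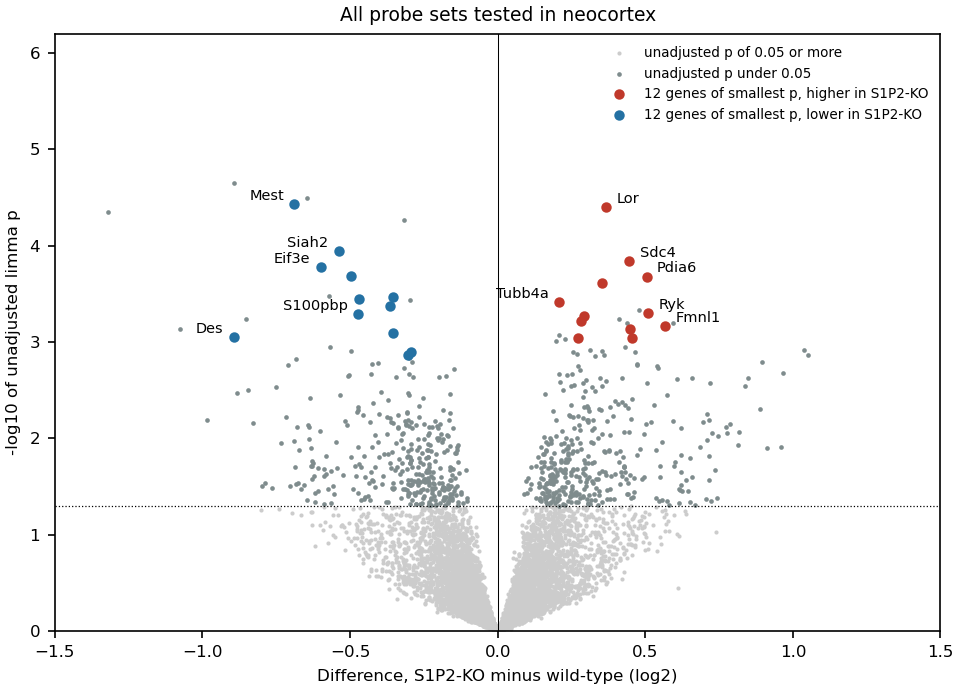
Each point is 1 of the 8534 probe sets, with the log2 difference of S1P2-KO minus wild-type neocortex on the x axis and -log10 of the unadjusted limma p on the y axis, and the dotted line stands at an unadjusted p of 0.05. The 12 genes of smallest p in either direction outside the gene groups left aside are coloured, with Mest at -0.69 and Lor at 0.37 the ones of smallest p.

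Mest was the only gene whose groups did not overlap. It is an imprinted gene, expressed from the paternal copy, and encodes a protein of the hydrolase fold. Its signal was 198 to 385 (median 310.4) on the S1P2-KO arrays and 400.4 to 822 (median 468) on the wild-type arrays, so each of the 10 S1P2-KO arrays was below every wild-type array. Such a separation was met by 1 of 8534 probe sets (0.0117%). The difference was -0.69 ± 0.14 (limma adjusted p = 0.0764), and it lay between -0.74 and -0.59 under all alternatives run. In S1P3-KO neocortex, set against the same wild-type arrays, Mest differed by -0.07. The contrast of the knockouts with each other, S1P2-KO minus S1P3-KO, was -0.62 ± 0.17 (unadjusted p = 0.0013, limma adjusted p = 0.642), where 5.93% of all probe sets had an unadjusted p under 0.05.

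Siah2 followed Mest by p among the lower genes described here, each read by its brightest probe set. It encodes a ubiquitin ligase and had signals of 537 to 826 (median 680.5) on the S1P2-KO arrays and 654 to 1305 (median 1021) on the wild-type arrays. Each of the 10 S1P2-KO arrays was under the wild-type median and 4 below every wild-type array, and the difference was -0.54 ± 0.12 (limma adjusted p = 0.14). Gadd45g, a growth arrest protein that stress and neuronal activity induce, had signals of 549 to 897 (median 681) on the S1P2-KO arrays and 748 to 1489 (median 949) on the wild-type arrays, with 8 of 10 S1P2-KO arrays below every wild-type array. It differed by -0.50 ± 0.12 (limma adjusted p = 0.162). Usp2, a deubiquitinating enzyme with a daily rhythm in many tissues, was called with array weights and is read by 2 probe sets. The brighter one differed by -0.20 ± 0.06 (adjusted p = 0.248) and the other by -0.32 ± 0.07 (limma adjusted p = 0.0764). The proteasome and ubiquitin list as a whole was near the background, with 4 members higher and 4 lower of 76 (7 lower without wild-type replicate 6, and 2 higher in both settings on the ratio).

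Eif3e, a subunit of the translation initiation factor eIF3, had signals of 183 to 544 (median 357) on the S1P2-KO arrays and 408 to 702 (median 547) on the wild-type arrays. Again each of the 10 S1P2-KO arrays was under the wild-type median, and the difference was -0.60 ± 0.14 (limma adjusted p = 0.16). Nab2, a corepressor that binds the EGR transcription factors and is induced together with them, differed by -0.47 ± 0.12 (adjusted p = 0.194). S100pbp differed by -0.47 ± 0.12, Snx5, a sorting nexin of endosomes, by -0.29 ± 0.08, Kdm3a, a histone demethylase, by -0.30 ± 0.09, and the unnamed transcript 1810030O07Rik by -0.35 ± 0.09 (limma adjusted p of 0.203 to 0.235). Des, the intermediate filament of muscle, was dim, with 57.7 to 197 (median 114) on the S1P2-KO arrays and 139 to 338 (median 211) on the wild-type arrays, and differed by -0.89 ± 0.24. The largest negative estimates with an unadjusted p under 0.05 were -0.98 for Adgrg3, an adhesion G protein-coupled receptor, -0.88 for Cd70, a ligand of the tumour necrosis factor family, -0.85 for Tiparp, an ADP-ribosyltransferase, and -0.80 for Abi1, an adaptor of actin assembly. Their group medians lay below the median signal of an array (364.8 to 412.2), except that of Tiparp in wild-type (446). At low signals the MAS5 value is noisy, and single S1P2-KO arrays stood high for Cd70 and Abi1.

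Genes of RNA splicing leaned to lower values. Of 66 members tested, 7 were lower with an unadjusted p under 0.05 (10.6%, against 4.46% of all genes) and 1 was higher (1.52%, against 4.54%). The median difference of the list was -0.04, against -0.01 over all genes. Among the 7 were Clk1 and Clk4, kinases that phosphorylate the serine-arginine-rich splicing factors, and Tra2b and Srsf5, which belong to or resemble those factors. The other 3 were Son, a scaffold of nuclear speckles, Hnrnpa1, an RNA-binding protein that represses exons, and Snrpe, a core protein of the spliceosomal particles. The higher member was Sfpq, a nuclear RNA-binding protein of paraspeckles.

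Tra2b had signals of 1078 to 1857 (median 1498) on the S1P2-KO arrays and 1698 to 2335 (median 1847) on the wild-type arrays, with 7 S1P2-KO arrays below every wild-type array. Its difference was -0.35 ± 0.09 (limma adjusted p = 0.194). Clk4 had signals of 635 to 986 (median 867) on the S1P2-KO arrays and 896 to 1405 (median 1085) on the wild-type arrays, and each of the 10 S1P2-KO arrays was under the wild-type median. It differed by -0.37 ± 0.09 (adjusted p = 0.202), while a second, dimmer probe set that may share sequence with other transcripts differed by -0.12. Clk1 had signals of 3701 to 6064 (median 4895) on the S1P2-KO arrays and 4436 to 7396 (median 6397) on the wild-type arrays and differed by -0.32 ± 0.09 (adjusted p = 0.248). The remaining lower members differed by -0.37 (Hnrnpa1), -0.19 (Son), -0.18 (Snrpe) and -0.17 (Srsf5), and Sfpq by 0.30. The count of lower members moved with RNA integrity: it was 4 when the model held the 3'/5' ratio and 4 without the 2 arrays of lowest ratio, and the part of RNA quality in the list was not tested. With the ratio held and without the 2 arrays, Clk4 differed by -0.41 and -0.41, Clk1 by -0.33 and -0.37 and Tra2b by -0.26 and -0.27.

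**Figure D2:**
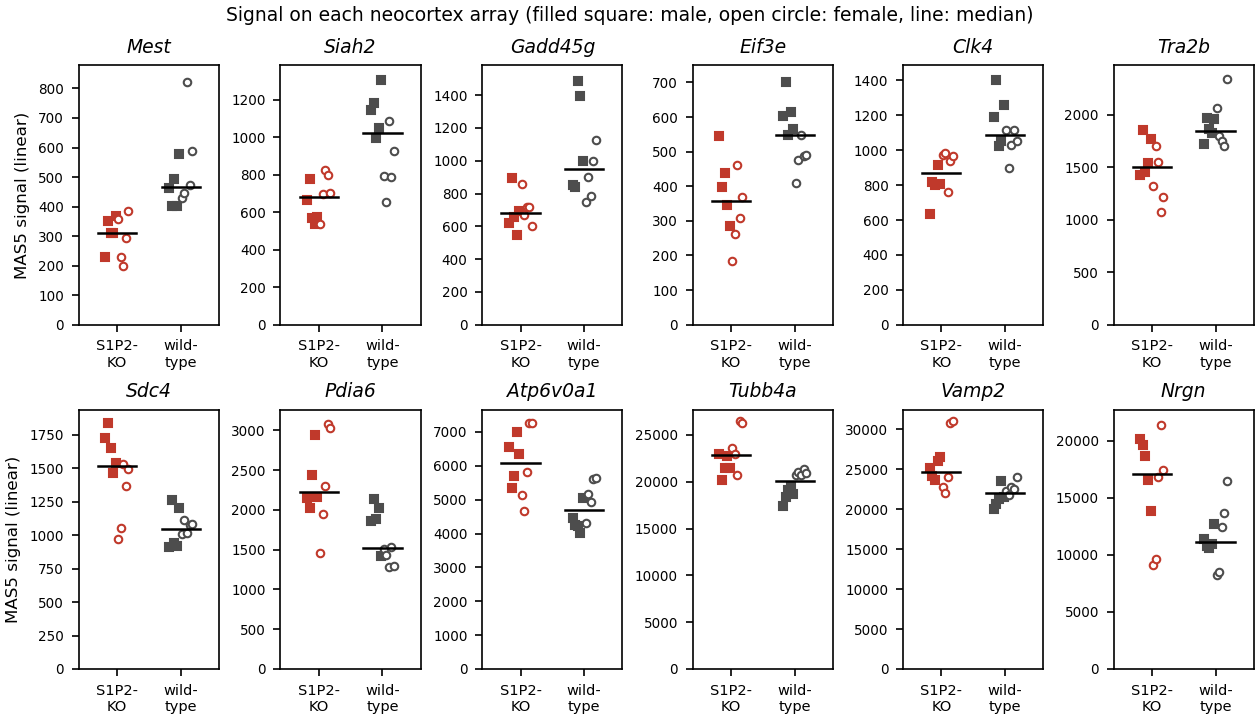
Each point is the linear MAS5 signal of 1 neocortex array, with the 10 S1P2-KO arrays on the left of each panel and the 10 wild-type arrays on the right. The upper panels show 6 genes lower in S1P2-KO and the lower panels 6 genes higher, and only Mest has groups that do not overlap.

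Promoter sequence was looked up for the named genes, to show what lies before the start of those the results turn on. In the RefSeq promoter table of build GRCm38.p6, the 250 bases before each start were searched on both strands for TGACGTCA, the cyclic AMP response element that CREB proteins bind, and for CACGTG, the E-box that clock proteins and MYC bind. The motifs do not overlap each other, and each reads the same on both strands. TGACGTCA was found before 508 of 32851 promoters of that length (1.55%) and before 148 of 5105 genes tested here that had an entry (2.9%). CACGTG was found before 1978 of the 32851 (6.02%) and 554 of the 5105 (10.9%). Of the 12 lower genes of smallest p, 10 had an entry, of which 1 held TGACGTCA (Clk4) and 2 held CACGTG (Gadd45g and Snx5). Of the 12 higher genes 10 had an entry and 0 held either. The windows of Clk4, Gadd45g and Ppan, a neighbour of S1pr2 described below, are printed 5′ to 3′ with the motif in capitals, and a match describes the letters only.
Clk4, chr11:51262864-51263113, plus strand: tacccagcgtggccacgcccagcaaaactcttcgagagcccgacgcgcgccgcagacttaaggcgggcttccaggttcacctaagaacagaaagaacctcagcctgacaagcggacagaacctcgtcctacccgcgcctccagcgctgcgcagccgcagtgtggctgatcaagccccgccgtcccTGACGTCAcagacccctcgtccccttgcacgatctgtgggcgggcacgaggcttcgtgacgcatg
Gadd45g, chr13:51846425-51846674, plus strand: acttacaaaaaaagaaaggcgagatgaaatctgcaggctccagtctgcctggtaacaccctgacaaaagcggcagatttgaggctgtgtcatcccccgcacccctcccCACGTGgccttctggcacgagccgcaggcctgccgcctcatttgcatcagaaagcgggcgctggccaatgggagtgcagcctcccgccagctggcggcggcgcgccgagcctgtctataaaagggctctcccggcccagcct
Ppan, chr9:20887925-20888174, plus strand: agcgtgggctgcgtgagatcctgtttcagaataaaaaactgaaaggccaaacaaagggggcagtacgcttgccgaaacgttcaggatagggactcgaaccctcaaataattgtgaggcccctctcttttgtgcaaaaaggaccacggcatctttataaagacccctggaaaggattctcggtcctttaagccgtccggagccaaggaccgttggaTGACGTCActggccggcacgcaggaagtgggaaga

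Among the higher genes, Lor had the smallest p. Loricrin is known as a protein of the epidermis, and its probe set carries the suffix of sets for which the usual rules of probe choice were dropped, so that other transcripts may contribute to it. Its signal was 889.7 to 1476 (median 1119) on the S1P2-KO arrays and 763 to 1008 (median 898) on the wild-type arrays, a difference of 0.37 ± 0.08 (limma adjusted p = 0.0764). Sdc4, a heparan sulfate proteoglycan of the cell surface that links matrix and cytoskeleton, had signals of 974 to 1838 (median 1515) on the S1P2-KO arrays and 912 to 1265 (median 1048) on the wild-type arrays. On 8 of 10 S1P2-KO arrays it lay above every wild-type array, and it differed by 0.45 ± 0.10 (limma adjusted p = 0.153). In hippocampus Sdc4 differed by 0.50 ± 0.14 (unadjusted p = 0.002, limma adjusted p = 0.767).

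Pdia6, a protein disulfide isomerase, had signals of 1460.0 to 3076 (median 2229.6) on the S1P2-KO arrays and 1280.4 to 2137 (median 1517) on the wild-type arrays and differed by 0.50 ± 0.12 (limma adjusted p = 0.162). Its other probe sets differed by 0.19 and 0.30. Tmem208, a protein of the endoplasmic reticulum membrane, differed by 0.28 ± 0.07, and Wfs1, the wolframin of the same membrane, by 0.27 ± 0.07 (adjusted p of 0.203 and 0.223). The endoplasmic reticulum stress list held 3 higher members of 32 (9.38%, against 4.54%), with Sel1l at 0.22 and Hsp90b1 at 0.13 beside Pdia6, and 1 lower, the stress kinase Eif2ak3 at -0.30. The list held 7 higher and 1 lower with the ratio held, but 2 higher and 2 lower without the 2 arrays of lowest ratio. The higher count was also 7 without S1P2-KO replicate 6 and 5 without wild-type replicate 10. Atp6v0a1, a membrane subunit of the vesicular proton pump, had signals of 4674 to 7276 (median 6084) on the S1P2-KO arrays and 4003 to 5639 (median 4692) on the wild-type arrays and differed by 0.35 ± 0.08 (limma adjusted p = 0.174).

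Tubb4a, a tubulin of brain, had signals of 20184 to 26463 (median 22865) on the S1P2-KO arrays and 17460.0 to 21397 (median 20054) on the wild-type arrays, with 8 of 10 S1P2-KO arrays above every wild-type array. The difference was 0.21 ± 0.05 (limma adjusted p = 0.196), and its list, cytoskeleton and transport motors, held 2 higher and 2 lower of 69 (2.9% each). Fmnl1, a formin that assembles actin, differed by 0.57 ± 0.15 on one probe set and by 0.60 ± 0.15 on the other. Ryk, a receptor for Wnt proteins, differed by 0.51 ± 0.13, Adam15, a membrane-bound metalloprotease, by 0.45 ± 0.12, Slc7a5, which carries large neutral amino acids across the blood-brain barrier, by 0.29 ± 0.07, and Zfp385a, a zinc finger protein, by 0.46 ± 0.12 (limma adjusted p of 0.203 to 0.223). The largest positive estimates with an unadjusted p under 0.05 were 1.05 for Bsn, 1.04 for Bmpr2, 0.97 for Has1, a hyaluronan synthase, 0.96 for Ada, the adenosine deaminase, and 0.91 for Aebp1. Of these, Has1 and Bmpr2 had medians below the median signal of an array in both groups. A second probe set of Ada differed by -0.09, with mean signals of 140 in S1P2-KO and 157 in wild-type. Has1 had signals of 77.3 to 369 (median 211) on the S1P2-KO arrays and 41.3 to 192 (median 83.2) on the wild-type arrays.

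Genes of the synaptic vesicle and its release machinery held 7 higher members of 50 (14%, against 4.54%) and 0 lower. Their median difference was 0.01, so the 7 stood in a list that was otherwise centred near 0. Bsn, the active zone scaffold bassoon, had signals of 274 to 1332 (median 618) on the S1P2-KO arrays and 124 to 599 (median 269.9) on the wild-type arrays, and each of the 10 S1P2-KO arrays exceeded the wild-type median. It differed by 1.05 ± 0.30 (limma adjusted p = 0.235). Vamp2, the vesicle SNARE synaptobrevin, had signals of 22061 to 30998 (median 24632) on the S1P2-KO arrays and 19999 to 24060.0 (median 22019) on the wild-type arrays and differed by 0.21 ± 0.06 (adjusted p = 0.257), and its second probe set by 0.41 ± 0.13. The others were Cplx1, a complexin that clamps fusion, at 0.19, Doc2b, a calcium sensor, at 0.64, and the endocytosis genes Ap2a1 at 0.34, Pacsin1 at 0.24 and Clta at 0.16. The count was 8 when the model held the 3'/5' ratio, where 2 members were lower, and 6 without the 2 arrays of lowest ratio, where 1 was lower.

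Other neuronal transcripts were higher as single genes. Nrgn, neurogranin, which holds calmodulin at the postsynaptic membrane, had signals of 9153 to 21440.0 (median 17146) on the S1P2-KO arrays and 8262 to 16482 (median 11144) on the wild-type arrays, with 7 S1P2-KO arrays above every wild-type array. It differed by 0.47 ± 0.14 (limma adjusted p = 0.244). Its list, calcium and cyclic nucleotide signalling, held 5 higher (9.43%, against 4.54%) and 2 lower (3.77%, against 4.46%) of 53. That higher count was 2 when the model held the 3'/5' ratio and 3 without wild-type replicate 2, S1P2-KO replicate 2 or S1P2-KO replicate 9. Nptx1 and Nptx2, secreted neuronal pentraxins that cluster receptors at synapses, differed by 0.40 ± 0.13 and 0.45 ± 0.15, and Vip, the interneuron peptide, by 0.34 ± 0.16. These were the 3 higher members of 31 neuropeptides and trophic factors (9.68%), of which 0 were lower, and there were 5 higher without S1P2-KO replicate 6.

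Of 14 voltage-gated sodium and calcium channels 2 were higher (14.3%, against 4.54%) and 1 lower (7.14%). Cacna1a, the pore of P/Q-type calcium channels, differed by 0.50 ± 0.17, and Scn1a, the sodium channel of many interneurons, by -0.25 ± 0.11. In hippocampus Scn1a differed by -0.34 ± 0.10 (unadjusted p = 0.002). The inward rectifier Kcnj4 differed by 0.24 ± 0.08 and was one of 2 higher members of 28 potassium channels (7.14%), with 0 lower. Of 21 ion pumps and transporters 3 were higher (14.3%) and 1 lower (4.76%, Slc4a3 at -0.12). The higher ones were Atp2b2, a plasma membrane calcium pump (0.29 ± 0.09), Fxyd7, a regulator of the sodium pump (0.21), and Atp1b2, its glial beta subunit (0.40). GABA and glycine receptors held 1 higher member of 13, the GABA-B receptor gene Gabbr1 at 0.11. Without the 2 arrays of lowest ratio the higher counts were 1 for voltage-gated channels, 1 for potassium channels, 2 for pumps and 0 for GABA and glycine receptors.

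**Figure D3:**
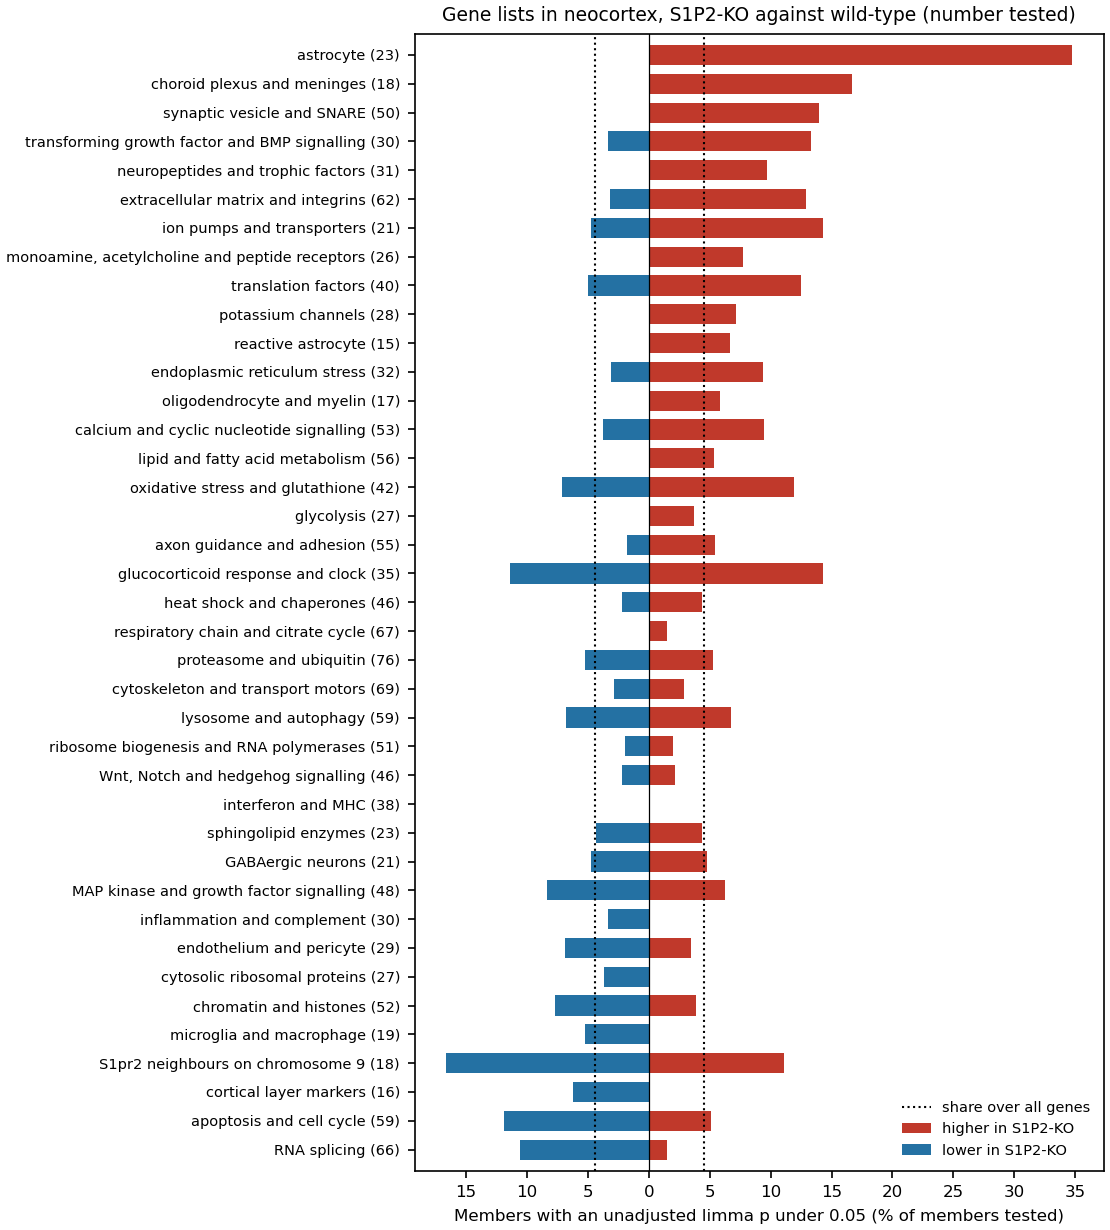
Bars give the percentage of tested members with an unadjusted limma p under 0.05, higher in S1P2-KO to the right and lower to the left, for the 39 lists with at least 15 members tested. Dotted lines mark the shares over all genes, 4.54% higher and 4.46% lower. Lists are ordered by the higher share minus the lower share. The astrocyte list reaches furthest to the right, at 34.8%, and by that order the RNA splicing list stands at the bottom with 10.6% lower. The lower share itself is larger for S1pr2 neighbours on chromosome 9 (16.7%), apoptosis and cell cycle (11.9%) and glucocorticoid response and clock (11.4%).

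Along the receptor's own pathway the differences were small. S1pr2, read by 1 probe set, had signals of 348 to 825 (median 647) on the S1P2-KO arrays and 426 to 876 (median 727) on the wild-type arrays and differed by -0.10 ± 0.14 (limma adjusted p = 0.874). The position of this probe set relative to the deletion is unknown here, so the genotype rests on the labels. S1pr1 differed by -0.06 ± 0.13 and S1pr3 by 0.23 ± 0.14, and the lysophosphatidic acid receptor Lpar1 by 0.12 ± 0.09. None of these 4 receptors had an unadjusted p under 0.05. Of 23 enzymes and carriers of sphingolipids 1 was higher and 1 lower: Psap, the saposin precursor, at 0.30 and Glb1, the lysosomal beta-galactosidase, at -0.16. Psap was at 0.12 with the ratio held and 0.19 without the 2 arrays of lowest ratio, both with an unadjusted p over 0.05, which left 0 higher in the list, and its other probe sets differed by -0.10 and 0.43.

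Of 48 genes of MAP kinase and growth factor signalling, 3 were higher (6.25%, against 4.54%) and 4 lower (8.33%, against 4.46%). Among the higher was the adaptor Grb2 at 0.36 ± 0.10. Among the lower were the phosphatase Dusp8 at -0.30 ± 0.09 and the growth kinase Mtor at -0.18 ± 0.05. The higher count of 3 was 1 when any of S1P2-KO replicates 2, 3, 8 and 10 or wild-type replicates 3 and 4 was left out, and 1 without the 2 arrays of lowest ratio.

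Astrocyte genes held the largest share of higher members of any list with at least 15 members tested. Of 23 tested, 8 were higher (34.8%, against 4.54%) and 0 lower, with a median of 0.08. Apart from the filament gene Gfap (0.47) and the connexin Gjb6 (0.27), these were Glul, the glutamine synthetase that recycles transmitter, at 0.34 ± 0.12, the metallothioneins Mt1, Mt2 and Mt3 at 0.22, 0.24 and 0.31, the transcriptional inhibitor Id4 at 0.18 and the neurotrophin receptor Ntrk2 at 0.58. Mt3, the metallothionein of brain, had signals of 20808 to 32526 (median 25904) on the S1P2-KO arrays and 15145 to 30400.0 (median 19904) on the wild-type arrays, and each of the 10 S1P2-KO arrays exceeded the wild-type median. The summed signal of the 23 genes ran from 207170.0 to 236610.0 in S1P2-KO and 194480.0 to 217880.0 in wild-type, and 0 of their values were at 0. The defining markers Aqp4 and Slc1a2 had medians of 1508 and 799 in S1P2-KO and of 1370.0 and 673 in wild-type, without reaching an unadjusted p under 0.05. A second probe set of Gfap differed by 0.18 and of Gjb6 by 0.02. The count was 6 when the model held the 3'/5' ratio and 6 without the 2 arrays of lowest ratio. The list had been seen to be higher in these data when it was chosen, so its count is no independent evidence.

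Microglia and macrophage genes held 0 higher and 1 lower of 19 (Ctss, a lysosomal protease, at -0.16), and their summed signal ran from 18276 to 24416 in S1P2-KO and 20718 to 22694 in wild-type. Oligodendrocyte and myelin genes held 1 higher of 17 (5.88%, against 4.54%). Cortical layer markers held 0 higher and 1 lower of 16 (6.25%, against 4.46%), and 9 of the 16 estimates lay below 0. With the ratio held, 2 of these markers were higher and 0 lower. Genes of endothelium and pericytes held 1 higher (3.45%, against 4.54%) and 2 lower (6.9%, against 4.46%) of 29. These were Ramp2, a receptor partner of vessels, at 0.30 ± 0.09, Itm2a at -0.31 ± 0.10 and Eng at -0.16. Endothelium and pericytes held 4 higher with the ratio held and 2 without the 2 arrays of lowest ratio. Markers of thalamus and striatum, which a dissection could carry along, held 0 of 10 in either direction at an unadjusted p under 0.05. However, 9 of the 10 estimates lay above 0, against 48.3% of all genes, and the median was 0.07, against -0.01. Without the 2 arrays of lowest ratio 1 of these markers was higher, and the part of dissection was not tested. Choroid plexus and meninges held 3 higher of 18 (16.7%, against 4.54%), namely Igf2 at 0.19, Col8a1 at 0.46 and Folr1 at 0.65, and 1 higher without S1P2-KO replicate 6, S1P2-KO replicate 10 or wild-type replicate 1 and in both settings on the ratio. Their summed signal ran from 41573 to 61860.0 in S1P2-KO and 45373 to 55088 in wild-type. Ttr, the defining gene of that tissue, ran from 30.4 to 4755 in S1P2-KO and from 46.8 to 2519 in wild-type, so single arrays carried it in both groups. Kl, another defining gene, had medians of 19.1 in S1P2-KO and 21.7 in wild-type, both below 30.7, the level that 10% of all signals lie under. Blood and erythroid genes held 1 higher and 1 lower of 7 (14.3% each): Alas2, a heme enzyme of red cells, at 0.84 ± 0.26, and Cd4 at -0.37.

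Extracellular matrix genes, some of which meninges and vessels also make, held 8 higher of 62 (12.9%, against 4.54%) and 2 lower (3.23%, against 4.46%). The proteoglycans Sdc4 (0.45), Gpc1 (0.23 ± 0.07), Spock2 (0.21), Bgn (0.29) and Fmod (0.45) were among the higher ones. The remaining 3 were the collagens Col6a2 (0.43) and Col8a1 (0.46) and the laminin chain Lama4 (0.38). Vcan, the proteoglycan versican, and the collagen gene Col19a1 were lower by these terms, at -0.61 and -0.25 ± 0.08. Gpc1 lay above every wild-type array on 8 of 10 S1P2-KO arrays, with 2057 to 3170.0 (median 2732) on the S1P2-KO arrays and 1902 to 2549.7 (median 2334) on the wild-type arrays. The higher count was 5 without wild-type replicate 7 and 3 without the 2 arrays of lowest 3'/5' ratio, and the part of choroid plexus, meninges or RNA quality in it was not tested.

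In the transforming growth factor and bone morphogenetic protein (BMP) list, 25 of 30 estimates lay above 0, against 48.3% of all genes (51.7% lay below 0), and the median was 0.10. Bmpr2, the type II BMP receptor, differed by 1.04 ± 0.29 (limma adjusted p = 0.235) and had signals of 59.7 to 397 (median 292) on the S1P2-KO arrays and 43.1 to 310.5 (median 96.2) on the wild-type arrays. Chrd, the secreted BMP antagonist chordin, differed by 0.71 ± 0.26, Bmp1, a protease that frees BMPs, by 0.16 and Id4, a BMP target, by 0.18. At an unadjusted p under 0.05 the list held 4 higher (13.3%, against 4.54%) and 1 lower (3.33%, against 4.46%). The 1 lower member at that level was the signal transducer Smad1, at -0.24. Without S1P2-KO replicate 7 the list median was 0.17. The lists of Wnt, Notch and hedgehog signalling and of axon guidance were near the background (axon guidance held 6 higher of 55 with the ratio held, against 3), with Lfng, which modifies Notch, at 0.61 ± 0.18 and the semaphorin Sema6c at 0.51 ± 0.15.

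**Figure D4:**
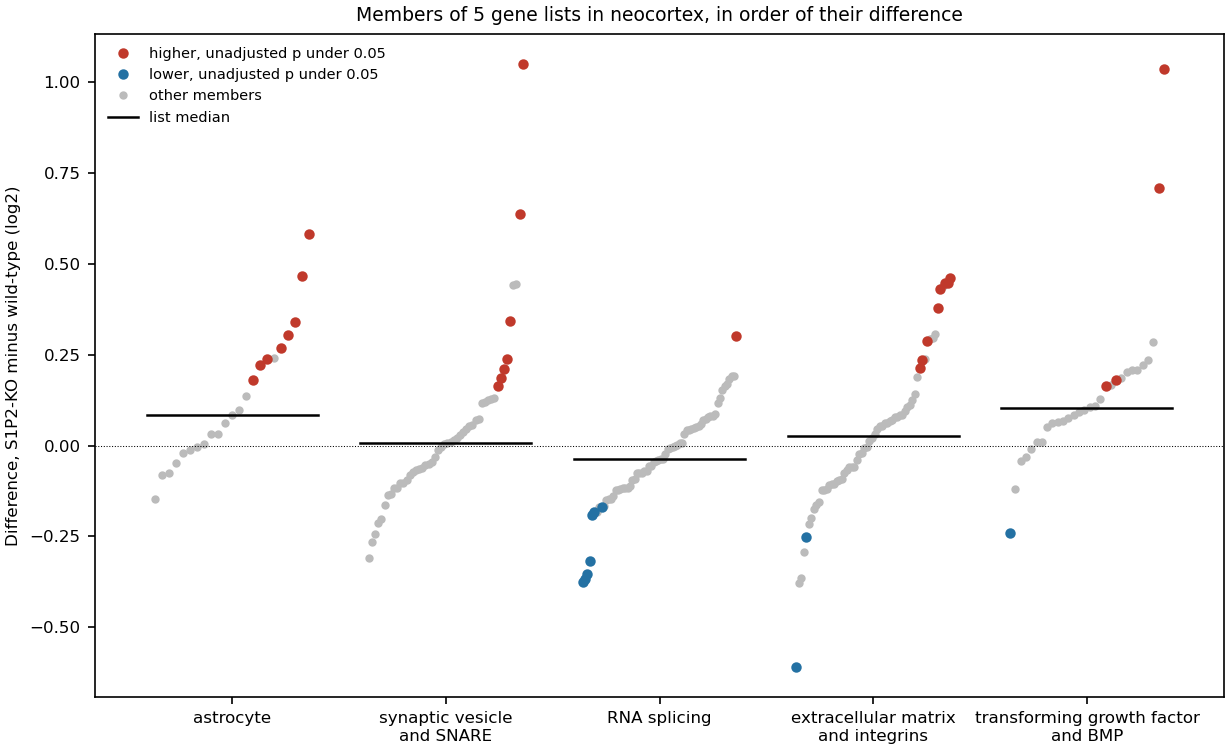
Each point is 1 gene, with its log2 difference of S1P2-KO minus wild-type neocortex on the y axis, ordered by that difference within 5 lists, and the line is the list median. The astrocyte and synaptic vesicle lists have coloured points only above 0, with 8 and 7 members, and RNA splicing has 7 below 0 and 1 above.

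The list of glucocorticoid response and clock held 5 higher of 35 (14.3%, against 4.54%) and 4 lower (11.4%, against 4.46%). Its lower members were the kinase Sgk1 (-0.46 ± 0.15) and the transcription factors Bhlhe40 (-0.40), Dbp (-0.31) and Cebpb (-0.24). The higher ones were Angptl4, a lipase inhibitor (0.52), Tef (0.18), Gjb6, Mt1 and Mt2, the last 3 of which the astrocyte list also holds. Other probe sets of Angptl4 differed by 0.50 and -0.33. The lower count was 2 when S1P2-KO replicate 1 or 3 was left out, it was 6 with the ratio held, and the median of -0.07 was -0.01 without S1P2-KO replicate 7 or wild-type replicate 9. Apoptosis and cell cycle held 7 lower of 59 (11.9%), among them Gadd45g, Mcl1 at -0.29 and Mki67 at -0.69, and 3 higher, with Ccnt1, a cyclin of transcription elongation, at 0.35 ± 0.10 and Cdk5r1, the neuronal activator of Cdk5, at 0.45 ± 0.14. The lower count there was 4 without S1P2-KO replicate 2 and 3 without the 2 arrays of lowest ratio, and the higher count was 5 without wild-type replicate 3. Of the clock factors, Dbp and Tef differed in opposite directions.

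The respiratory chain and citrate cycle held 1 higher of 67 (Suclg1 at 0.18) and 0 lower, and glycolysis 1 higher of 27 (Pkm at 0.17). Pkm was at 0.07 with the ratio held and 0.08 without the 2 arrays of lowest ratio, both with an unadjusted p over 0.05, and its other probe set differed by -0.12. Of 27 cytosolic ribosomal proteins 0 were higher and 1 lower (Rps4x at -0.15), although 20 of the 27 estimates lay below 0. Interferon and MHC genes held 0 of 38 in either direction at an unadjusted p under 0.05, and inflammation and complement 1 lower of 30 (Socs2 at -0.24). Among 56 genes of lipid and fatty acid metabolism 3 were higher (5.36%, against 4.54%) and 0 lower. The 3 were the lipid exporters Abcg1 at 0.25 ± 0.07 and Abca2 at 0.20 ± 0.05 and the elongase Elovl1 at 0.38. There were 5 higher without S1P2-KO replicate 9. Abcg1 lay above the wild-type median on all 10 S1P2-KO arrays, with 2010.3 to 2798 (median 2372) on the S1P2-KO arrays and 1630.5 to 2364 (median 1955) on the wild-type arrays. The oxidative stress and glutathione list held 5 higher of 42 (11.9%, against 4.54%) and 3 lower (7.14%, against 4.46%). The higher ones were Sod1, the cytosolic superoxide dismutase, at 0.27 ± 0.10, Nfe2l1 at 0.14 and the metallothioneins Mt1, Mt2 and Mt3 of the astrocyte list, and the lower ones Gstz1 at -0.25 ± 0.09, Txnrd2 at -0.26 and Hmox2 at -0.21. The counts were 6 and 4 with the ratio held and 4 and 1 without the 2 arrays of lowest ratio, and the lower count was 1 when any of S1P2-KO replicates 3, 9 and 10 or wild-type replicates 1, 4, 5 and 6 was left out. Lysosome and autophagy genes held 4 higher and 4 lower of 59 (6.78% each, against 4.54% and 4.46%). The higher count was 2 without wild-type replicate 4. Among them were Naglu, a lysosomal glycosidase, at -0.47 ± 0.15 and Atp6v0a1 as above.

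Genes near S1pr2 on chromosome 9 were examined as a group of their own. Among the 25 protein-coding genes on either side, 11 were tested, of which 2 were higher and 2 lower at an unadjusted p under 0.05. Over all genes 4.54% were higher and 4.46% lower at that level, and a group of 11 is small for such a comparison. The gene list of S1pr2 neighbours was drawn up separately from this window. Of its 18 members tested, 2 were higher (11.1%) and 3 lower (16.7%). It held 3 higher and 2 lower with the ratio held, and 2 of each without the 2 arrays of lowest ratio. Ppan, a factor of ribosome assembly, lies 3 genes away, and its signal was 50.7 to 305 (median 143) on the S1P2-KO arrays and 98.6 to 342 (median 268) on the wild-type arrays. It differed by -0.60 ± 0.21 in neocortex (unadjusted p = 0.0084, limma adjusted p = 0.357) and by -0.78 ± 0.17 in hippocampus (unadjusted p = 9.2e-05, limma adjusted p = 0.282). The contrast S1P2-KO minus S1P3-KO in neocortex was -0.88 ± 0.26 (adjusted p = 0.675). The genes next to S1pr2, Dnmt1 and Mrpl4, differed by 0.16 ± 0.06 and 0.15 ± 0.07, and Ubl5, 10 genes away, by -0.13 ± 0.05. The strain background of the mice was not given in the labels used here.

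The 24 genes of smallest p were set beside the other contrasts. In hippocampus of the same genotypes, on arrays that the neocortex comparison does not use but possibly of the same animals, 11 of the 12 lower genes had an estimate below 0 and 12 of the 12 higher genes one above 0. The share of all genes with the same direction in both tissues is not given here, so these counts have no background. In hippocampus 3 of the lower and 2 of the higher genes had an unadjusted p under 0.05. Over all 6350 genes 3.26% were lower and 2.5% higher in hippocampus at that level. Over probe sets the share was 5.54% with both directions together, and limma called 0 of 8534. Des was the exception in direction, at 0.48 ± 0.24 in hippocampus. Fmnl1 (0.55 ± 0.22), Tra2b (-0.30 ± 0.13) and Eif3e (-0.43 ± 0.20) were near their neocortex values. Ryk (0.04 ± 0.14) and S100pbp (-0.06 ± 0.14) were near 0 in hippocampus. Over all probe sets 0 differed in effect between the tissues by limma's adjusted p, and 222 had an unadjusted p under 0.05 (2.6%), among them Des (unadjusted p = 0.00021) and Ryk (0.017).

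The S1P3-KO arrays were compared with the same wild-type arrays, so the estimates of the 2 knockouts are not independent and are only given side by side. For S1P3-KO minus wild-type limma called 0 of 8534 probe sets, and 895 had an unadjusted p under 0.05 (10.5%). That share was 8.74% for S1P2-KO minus wild-type, so both knockouts stood further from these wild-type arrays than from each other by this count. Several had the same direction: Sdc4 differed from wild-type by 0.45 in S1P2-KO and 0.62 in S1P3-KO, Lor by 0.37 and 0.42, Fmnl1 by 0.57 and 0.82, and Eif3e by -0.60 and -0.51. Others stood apart in the direct contrast of S1P2-KO minus S1P3-KO. S100pbp differed there by -0.61 ± 0.15 (unadjusted p = 0.00028), Clk4 by -0.40 ± 0.11 (unadjusted p = 0.0015) and Sgk1 by -0.53 ± 0.19 (unadjusted p = 0.0079). For each of these the S1P3-KO mean was close to wild-type or above it, as for Mest. None passed adjustment, with a smallest limma adjusted p of 0.606 among the named genes and 0 calls of 8534 (506 with an unadjusted p under 0.05, 5.93%).

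**Figure D5:**
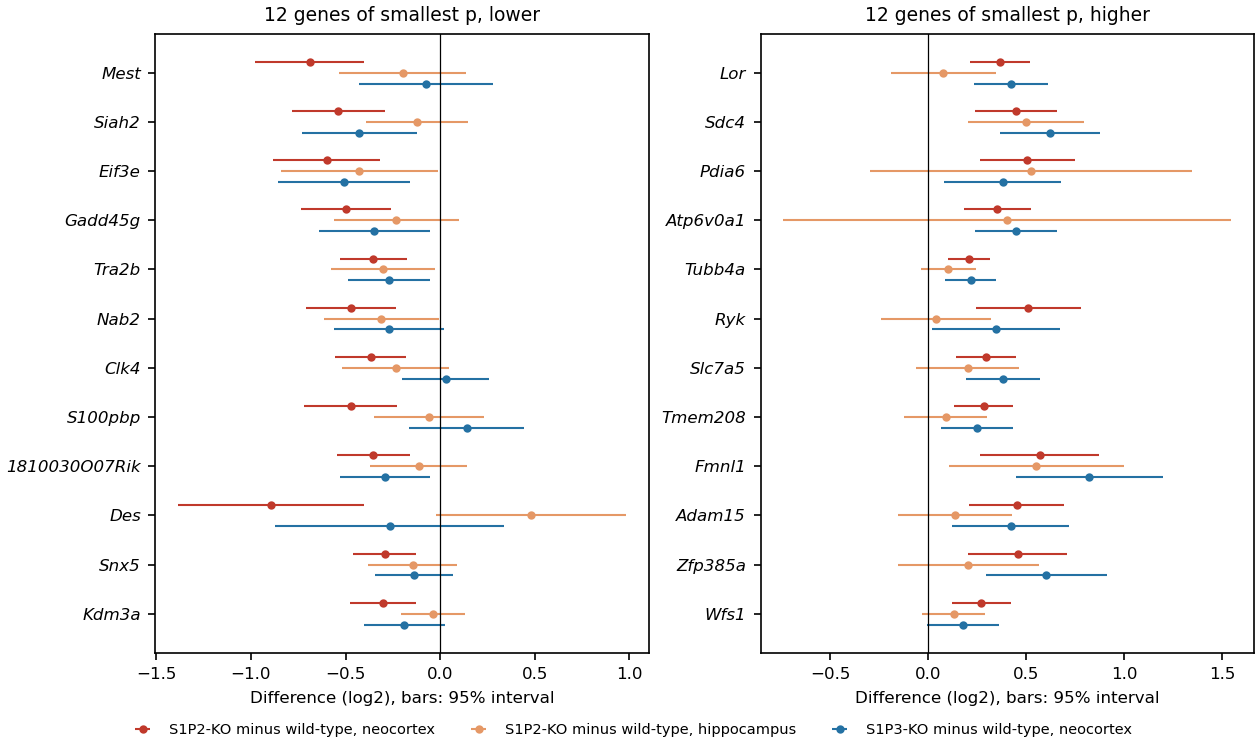
Points are log2 differences and bars 95% intervals for the 12 lower (left) and 12 higher (right) genes of smallest p, in S1P2-KO minus wild-type neocortex, S1P2-KO minus wild-type hippocampus and S1P3-KO minus wild-type neocortex. Mest, Clk4 and S100pbp stand near or above 0 in S1P3-KO, at -0.07, 0.03 and 0.14, and Des turns direction in hippocampus.

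Males and females were compared in the effect of the knockout. Limma called 0 of 8534 probe sets for the interaction, and 658 had an unadjusted p under 0.05 (7.71%). The smallest p belonged to Mgp, a matrix protein of vessels and meninges, with 0.63 in males and -0.24 in females, to Ogfr, a receptor for an opioid growth factor (-0.52 and 0.18), and to Yif1a, a vesicle protein of the Golgi (1.02 and -0.45), each at an adjusted p of 0.136. Several genes described above had estimates mainly in the 5 males of each group: Clk1 differed by -0.60 in males and -0.04 in females, Ap2a1 by 0.69 and -0.01, Mt3 by 0.62 and -0.01, and Grb2 by 0.66 and 0.06. Their interactions had unadjusted p of 0.0003 (Clk1), 0.00037 (Ap2a1), 0.00049 (Mt3) and 0.0019 (Grb2), and limma adjusted p of at least 0.344. Mest (-0.53 and -0.84), Eif3e (-0.58 and -0.61) and Tubb4a (0.23 and 0.19) had the same direction in both sexes.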

How the data were processed

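Gene expression was measured on Affymetrix MG-U74Av2 arrays. Per the labels' protocols, TRIzol served to extract RNA, of which 12 µg was labelled per array. The authors deposited 1 intensity per probe set and array for 12488 probe sets, which per the submitters' processing notes are MAS5 signals. These were already scaled (trimmed mean of 1000.6 to 1000.7 on every neocortex array), and the number of arrays limits their precision. Groups, sexes and replicate numbers came from the titles, since the design text lists group sizes of 10, 5 and 10 and names the groups otherwise. Gene names came from the platform annotation (10855 with 1 symbol, 396 with several, 1237 with none), and 10839 matched RefSeq by gene identifier, with 0 symbols changed. MAS5 leaves low signals noisy, so probe sets with a mean log2 level over the 50 arrays above the pooled 30th percentile were tested, without 66 control sets. With 30.7 (the 10th percentile of signals) added before taking log2, differences of dim genes are understated. Linear models (lmFit, eBayes with a trend) came from limma 3.58.1 under R 4.3.3 and ran over the 25 neocortex arrays of 3 genotypes with sex as a covariate, with Benjamini-Hochberg adjustment at 0.05, and the procedure was tested on simulated data. A gene stands by its brightest probe set. All members and the 48 gene lists were chosen with earlier results of these data known, as was the rule for named genes: S1pr2, its neighbours and the receptors, the 12 genes of smallest p and the 5 of largest difference in either direction, genes with groups that do not overlap, 3 members per list, and the 3 genes of smallest p for the sexes. Genes called under alternatives and further list members were named after their values were seen. One list is not reported here. Lists were described by counts and medians, without a test.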

Additional observations from a re-analysis of the deposited data

Results flagged for a closer look

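Among the 124 genes named by the rule, 248 groups of 10 neocortex arrays were checked for a highest or lowest array that stands far from the rest (Dixon's ratio above its 95% critical value), and 13 did so. Chance gives about 1 in 20 groups, so 13 of 248 is near that rate. Among S1P2-KO arrays these were Abi1 at 459.1 (replicate 1, highest), Cd70 at 376.5 (replicate 5, highest), Dusp8 at 910.2 (replicate 9, lowest), Gstz1 at 1875.0 (replicate 6, highest), Hrh1, a histamine receptor, at 455.1 (replicate 7, highest), Naglu at 121.3 (replicate 2, lowest) and Usp2 at 4771.2 (replicate 6, highest). Among wild-type arrays they were Kdm3a at 824.4, Stip1, a cochaperone, at 943.1 (both lowest) and Mrpl4 at 3434.7 (highest), all in replicate 6, Mest at 821.8 (replicate 8, highest), Pkm at 40111 (replicate 4, highest) and Sema6c at 1132.4 (replicate 3, highest). Wild-type replicate 6 is also the array whose removal gave 8 calls.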

How the results depend on the processing

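The 0 calls of S1P2-KO minus wild-type became 8 with array weights, 1 with the 3'/5' ratio in the model, 8 on leaving out wild-type replicate 6, 5 on leaving out wild-type replicate 7 and 2 on leaving out S1P2-KO replicate 2, and the cause was not tested. Over all single arrays left out, the calls ran from 0 to 8. Probe sets with an unadjusted p under 0.05 ran from 326 to 451 higher and from 316 to 401 lower with 1 array left out. They ran from 308 to 496 higher and from 265 to 525 lower over all alternatives, and the removal of S1P2-KO replicates 9 and 10 was chosen after seeing the data. With the replicate block, calls stayed at 0, with 461 higher and 404 lower. Same-numbered arrays were not paired, since their deviations correlated between -0.0641 and 0.103 and 0 arrays of any number matched their own number best. Of the named genes, S1pr1 turned to 0.038 with the 3'/5' ratio in the model (limma adjusted p = 0.968), and no other estimate changed sign. Lor, Mest, Siah2, Pdia6 and Nab2 passed under at least 1 of array weights or the removal of wild-type replicate 6 or 7, and Wdr92 only with the ratio. List counts of 2 or fewer often changed by 1 with single arrays left out. For the sexes the count was 0 in the alternative too. The number of arrays, MAS5 noise at low signals and a 3'/5' ratio that was lower on most S1P2-KO arrays than on any wild-type array limit all values.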
